A study of Mus musculus with 16 samples.

Results

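The genes described here are 37 mouse genes that specify the gonad, drive the choice between testis and ovary, or mark Sertoli and granulosa cells, out of 56748 genes in the counts table. They were chosen by symbol, and all 37 symbols were matched to a row of the table. By role, 15 belong to the bipotential gonad and the control of *Sry*, 7 to testis determination, 9 are Sertoli cell products or receptors, and 6 belong to ovary determination and granulosa cells. The samples were TM4 cells, an established Sertoli-like line from mouse, grown with 10% fetal bovine serum that received 2.5 µg plasmid per well by lipofection. The plasmid was pcDNA3.1-HA without an insert (EV, 6 samples), pcDgdf6Y with *gdf6Y*, the gene that makes turquoise killifish male (*gdf6Y*, 5 samples) or pcDgdf6Ydel9 with a mutant variant that lacks a short in-frame stretch of the prodomain (del9, 5 samples). All 16 samples therefore carried transfected DNA, and RNA was taken 24 h after transfection. Only mouse genes were in the table, so the level of the killifish transcript was not measured, nor was the share of cells that took up the plasmid.

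Sertoli and granulosa cells are the supporting cells of testis and ovary and arise from the same precursors in the genital ridge. Transcription factors such as Gata4, Wt1, Nr5a1, Lhx9, Emx2, Six4 and Cbx2 build the ridge and, together with Zfpm2, a p38 kinase branch through Gadd45g and Map3k4, the co-activator Cited2 and the insulin and IGF1 receptors, allow *Sry* to be expressed at the right time. Sry then raises Sox9, which is held up by Fgf9 and its receptor Fgfr2, whereas Rspo1, Wnt4 and Foxl2 take the ovarian path. Gdf6 proteins are BMP-type ligands, and the comparisons ask whether these genes differ when such a ligand is expressed in a Sertoli-like cell.

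Between 21486850 and 26444903 reads were counted on genes per sample. Replicates differed by more than sampling noise, with a chi-square per degree of freedom of 1.41 to 11.5 over 35 pairs, and the highest values were those of *gdf6Y* replicate 1 (7.60 to 11.5, against at most 6.48 for the other pairs). Nothing in the labels says that replicates came from separate cultures, so the spread between these samples, on which p-values rest, may be technical. Levels are given in TPM, read counts per kilobase of exon scaled to the same total in every sample, which allows genes to be set beside each other. Differences are given on normalized counts, that is read counts scaled to a common library size, and on log2 fold changes from the quasi-likelihood test of edgeR, with p-values adjusted by the Benjamini-Hochberg method over all genes tested. The test draws the spread of a gene toward that of genes with similar counts. Standard errors and p-values therefore follow the spread of the gene itself only in part. In *gdf6Y* against EV, *Igf1r* (SD of normalized counts 52.2 in EV and 179 in *gdf6Y*) had a standard error of 0.032. That of *Gata4* (SD 6.04 and 19.0) was 0.041. A gene was called at an adjusted p below 0.05, and expressed genes are those with a mean count of at least 10 over the 16 samples (12584 genes).

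TM4 cells expressed most of the listed bipotential gonad genes, though not *Wt1*, *Nr5a1*, *Nr0b1*, *Lhx9* or *Lhx2*, and few of the other listed genes. No other cell type was measured, so whether this pattern is particular to gonadal cells was not tested. Of the 37 genes, 16 were expressed, 12 had reads at a mean count below 10, and 9 had no read in any of the 16 samples. Of the genes of the bipotential gonad, 10 of 15 were expressed, against 2 of 7 for testis determination, 3 of 9 for Sertoli cell products and receptors and 1 of 6 for ovary and granulosa. Of the testis determination and Sertoli cell genes, *Sox9*, *Fgfr2*, *Kitl*, *Dhh* and *Clu* were expressed. *Sox10* and *Dmrt1* had no read, and *Sox8*, *Fgf9*, *Ptgds*, *Amh*, *Amhr2*, *Fshr*, *Gdnf*, *Cldn11* and *Trf* had low counts. The cut is on counts and takes no account of gene length, so that *Amh* fell below it and the longer *Clu* above it. Of the bipotential gonad factors *Gata4*, *Wt1*, *Nr5a1* and *Nr0b1*, only *Gata4* was expressed. *Nr5a1* had 21 reads in all, and *Wt1* and *Nr0b1* had no read. Outside the 37 genes, 7 of 21 other Sertoli markers were expressed.

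**Figure D1:**
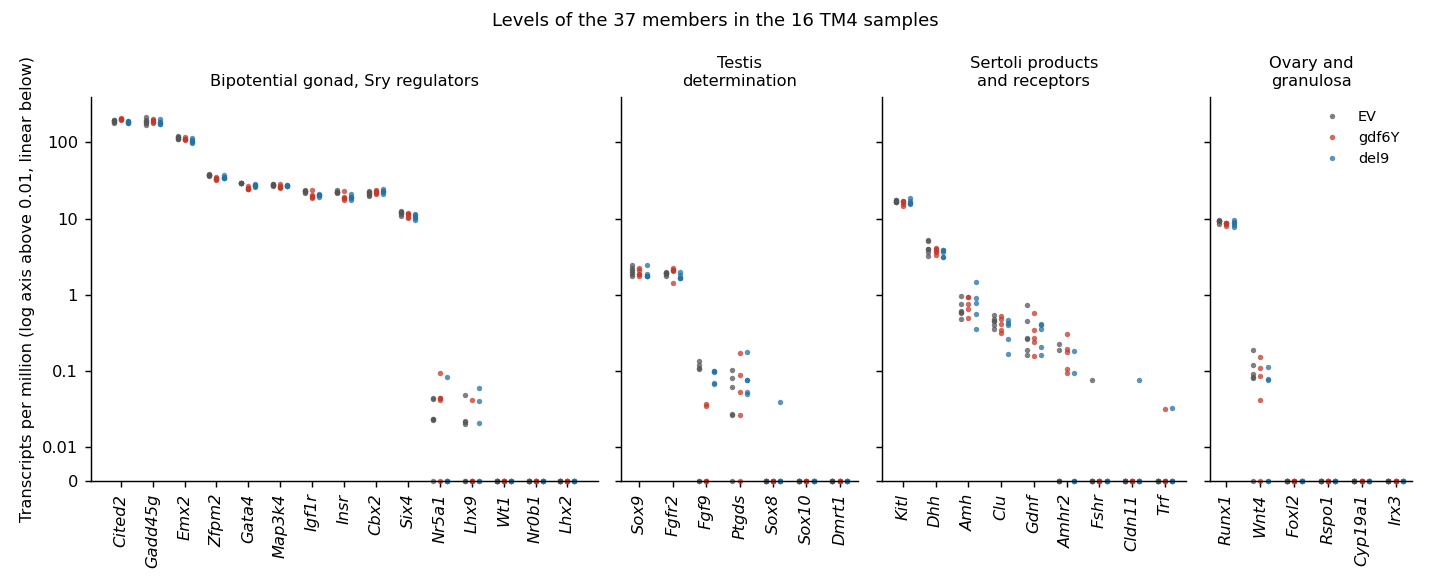
Levels of the 37 genes in TPM (vertical axis, logarithmic above 0.01 and linear below) in EV, *gdf6Y* and del9 samples, by role; each point is 1 sample. *Cited2* and *Gadd45g* lie between 172 and 217, *Emx2* between 99.0 and 122, *Sox9* between 1.74 and 2.44, and the 9 genes without a read lie on the 0 line in every group.

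Among the genes of the bipotential gonad, levels in EV samples ran from 191 ± 5.42 TPM (SD, n = 6) for *Cited2*, a co-activator that enhances Nr5a1 and Wt1 activity, down to 11.9 ± 0.538 TPM for *Six4*, a homeobox gene that acts upstream of *Nr5a1* and *Zfpm2*. *Gadd45g*, which activates the p38 kinase cascade that phosphorylates Gata4, was at 190 ± 16.3 TPM, so that it did not differ from *Cited2* beyond the spread. *Emx2*, a homeobox gene needed for the gonadal epithelium, followed at 116 ± 4.60 TPM. Next came *Zfpm2* (Fog2), the cofactor of Gata4, at 37.2 ± 0.672 TPM, *Gata4* itself at 29.4 ± 0.179 TPM and *Map3k4*, the kinase that Gadd45g binds, at 27.9 ± 0.662 TPM. *Igf1r* at 22.9 ± 0.590 TPM, *Insr* at 22.6 ± 0.566 TPM and the Polycomb gene *Cbx2* at 21.4 ± 1.19 TPM did not differ from each other beyond the spread. In the order of the 12549 expressed genes with a known exonic length, *Cited2* stood at the percentile 92.9 and *Gata4* at 55.7. The expressed genes of the other roles stood below *Gata4*. Their percentiles were 41.6 for *Kitl*, 28.9 for *Runx1*, 17.7 for *Dhh*, 10.7 for *Sox9*, 10.0 for *Fgfr2* and 1.64 for *Clu*.

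The other 5 genes of this group were near or at 0. *Nr5a1*, the steroidogenic factor Sf1, had 0 to 4 reads per sample and 21 in all, and *Lhx9*, a LIM homeobox gene that acts with Wt1 upstream of *Nr5a1*, had 0 to 3 reads and 13 in all. No read was counted on *Wt1*, *Nr0b1* (Dax1) or *Lhx2*. A count of 0 over all 16 samples allows a level of up to 0.00760 RPM (counted reads scaled by depth), and 0.140 RPM in the shallowest sample, counting error only.

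Of the testis determination genes, *Sox9*, the transcription factor that Sry activates, was at 2.07 ± 0.258 TPM and *Fgfr2* at 1.91 ± 0.0869 TPM in EV samples, 2 levels that do not differ beyond their spread. *Fgf9*, the ligand that keeps Sox9 active, had 0 to 4 reads per sample, *Ptgds*, the prostaglandin D2 synthase downstream of Sox9, 0 to 7, and *Sox8* a single read in 1 of 16 samples. *Sox10* and *Dmrt1* had no read. In GENCODE, exons of *Fgfr2* overlap those of *Ctbp2* by 314 bases on the same strand. Reads that overlap several genes were discarded in counting, and whether the release used for counting holds this overlap was not tested.

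Among the Sertoli cell products and receptors, *Kitl*, the ligand that Sertoli cells present to spermatogonia, led with 17.0 ± 0.489 TPM in EV samples. *Dhh*, the hedgehog ligand that signals to Leydig and myoid cells, was at 4.19 ± 0.802 TPM, with 546 exonic bases shared with *Rhebl1* on the same strand. *Clu*, a secreted chaperone, was at 0.447 ± 0.0636 TPM, 5 to 16 reads per sample. The remaining 6 were at low counts. *Amh*, which makes the Müllerian duct regress, had 3 to 13 reads per sample, and *Gdnf*, the niche factor of spermatogonial stem cells, likewise 3 to 13. Per length, *Amh* (1670 exonic bases) was at 0.661 ± 0.171 TPM in EV samples, not lower than *Clu* (5632 bases), which counts as expressed. The receptor gene *Amhr2* had 0 to 3 reads, the transferrin gene *Trf* 2 reads in all, and the FSH receptor gene *Fshr* and the tight junction gene *Cldn11* 1 read each in all samples together.

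Of the ovarian genes, *Runx1*, a transcription factor of granulosa cell precursors, was expressed at 9.27 ± 0.348 TPM in EV samples. *Wnt4* had 0 to 5 reads per sample. *Foxl2*, *Rspo1*, *Cyp19a1* (aromatase) and *Irx3* had no read with any plasmid, so that neither *gdf6Y* nor del9 brought these genes to a detectable level at this depth.

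The differences between plasmids were small. In *gdf6Y* against EV, 26 of the 37 genes had a read and were tested, and 5 were called, all among the 16 expressed genes. *Cited2* rose, and *Gata4*, *Zfpm2*, *Insr* and *Igf1r* fell, each by less than 15%. Of all genes tested, 5.08% were called. Of all expressed genes, 10.5% were called, 3.5% higher and 7.02% lower. In *gdf6Y* against del9 only *Cited2* was called among the 37 (higher), with 1.01% of all genes tested and 1.8% of expressed genes called, 0.969% higher and 0.834% lower. In del9 against EV *Cbx2* rose and *Insr* and *Igf1r* fell, beside 9.25% of all genes tested and 18.2% of expressed genes called, 9.97% higher and 8.25% lower. The 3 calls of 16 expressed genes in that comparison are near this background share. Over the 16 expressed genes the median log2 fold change was -0.05 in *gdf6Y* against EV, 0.03 in *gdf6Y* against del9 and -0.07 in del9 against EV, and over all expressed genes it was 0.00 in the first, 0.00 in the second and 0.01 in the third. All 6 called genes are from the bipotential gonad group, and none of the testis, Sertoli or ovarian genes was called in any comparison in the reported fits. That group holds 10 of the 16 expressed genes, each with at least 390 reads per sample. *Sox9*, *Dhh*, *Fgfr2* and *Clu* had at most 130, so small changes were harder to detect there, while *Kitl* and *Runx1* had at least 487. The RNA comes from whole wells, so fewer cells expressing a gene and less RNA per cell cannot be told apart.

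**Figure D2:**
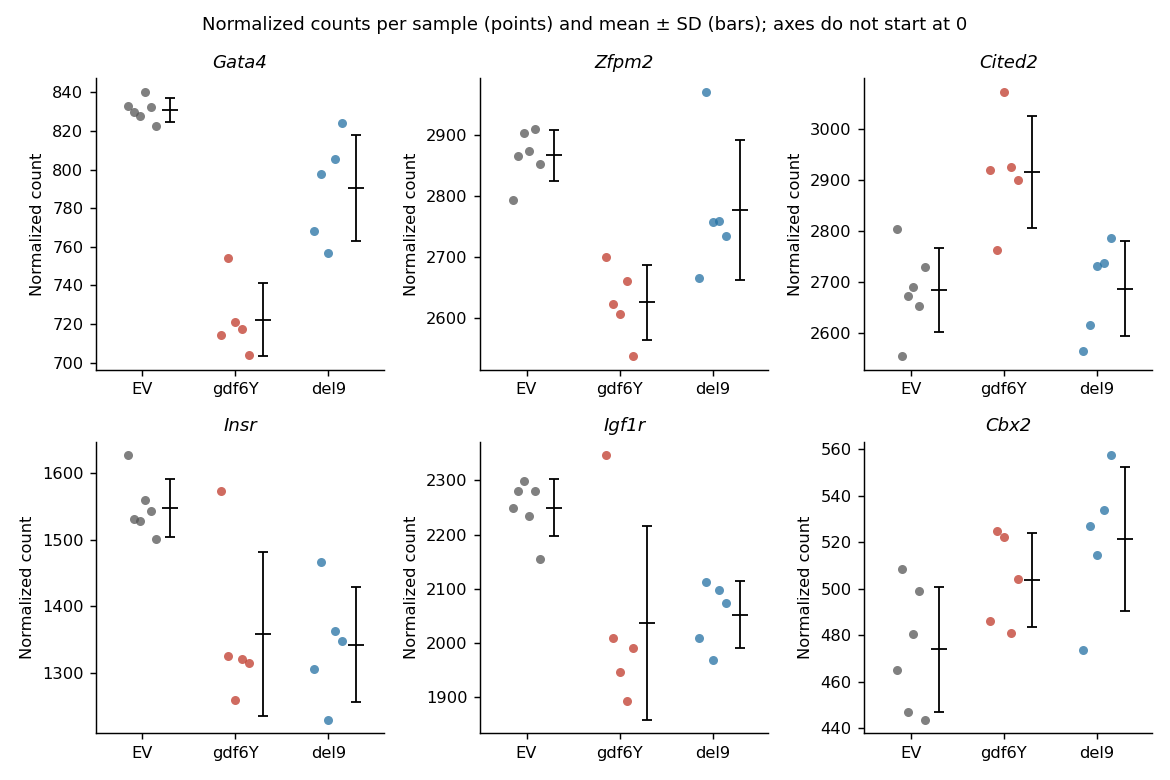
Normalized counts (vertical axes, not starting at 0) of the 6 called genes; points are samples, bars are the mean ± SD of 6 EV, 5 *gdf6Y* and 5 del9 samples. All *gdf6Y* samples of *Gata4* (704 to 754) lie below all EV samples (822 to 840), and *gdf6Y* replicate 1 stands above its group for *Insr* (1574) and *Igf1r* (2347).

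*Gata4* (ENSMUSG00000021944, chromosome 14 of GRCm39, 63436362 to 63509141) codes for the zinc finger factor that starts formation of the genital ridge and later binds regulatory elements of *Sry*, *Sox9* and *Amh*. Its normalized count was 822 to 840 in EV samples (median 831), 715, 754, 721, 718 and 704 in *gdf6Y* replicates 1 to 5, and 768, 798, 757, 805 and 824 in del9 replicates 1 to 5. Each *gdf6Y* sample was below every EV sample and below every del9 sample, while del9 and EV samples overlapped in 1 del9 sample. *Gata4* fell by 13.0% in *gdf6Y* against EV (log2 fold change -0.20, standard error 0.041, edgeR adjusted p = 1.0e-04). Against del9 the log2 fold change was -0.13 and the adjusted p 0.221, and between del9 and EV it was -0.07 with an adjusted p of 0.365. The call against EV held in 21 of 21 alternative fits, between -0.21 and -0.19.

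*Zfpm2* (ENSMUSG00000022306, chromosome 15, 40518278 to 40970261) codes for the cofactor that Gata4 needs in the early gonad. Its normalized count was 2793 to 2910 in EV samples (median 2870), 2701, 2622, 2607, 2661 and 2537 in *gdf6Y* samples and 2666, 2971, 2757, 2759 and 2734 in del9 samples. The *gdf6Y* samples lay below all EV samples, whereas of the del9 samples 4 lay below and 1 above all EV samples. *Zfpm2* fell by 8.28% in *gdf6Y* against EV (log2 fold change -0.12, standard error 0.030, edgeR adjusted p = 0.00181). The gene is long (15489 exonic bases), and with a correction for gene length the log2 fold change was -0.06 with an adjusted p of 0.311. Against del9 it was -0.08 with an adjusted p of 0.471.

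*Cited2* (ENSMUSG00000039910, chromosome 10, 17598966 to 17601792) was counted at 2555 to 2804 in EV samples (median 2682), at 2919, 2763, 3074, 2925 and 2901 in *gdf6Y* samples and at 2566, 2616, 2731, 2738 and 2788 in del9 samples. In 4 of 5 *gdf6Y* samples it was above all control samples, and replicate 2 lay within their range. *Cited2* rose by 8.78% against EV (log2 fold change 0.12, standard error 0.030, edgeR adjusted p = 0.00265) and by 8.93% against del9 (log2 fold change 0.12, standard error 0.034, adjusted p = 0.0292). Between del9 and EV the log2 fold change was 0.00, with an interval of 2 standard errors from -0.05 to 0.06. The call against del9 was lost in 10 of 20 alternative fits, among them the filter on low counts filterByExpr (adjusted p = 0.115) and 7 of the 10 fits that left out a sample (0.10 to 0.14, adjusted p up to 0.206). The call against EV was lost in 1 of 21, with the gene length correction (0.08, adjusted p = 0.0740).

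*Cited2* was the member called against both controls and *Igf1r* the called member with a promoter in the RefSeq table (GRCm38.p6) that fell with both inserts, so the 250 bases before the start of each are shown, 5′ to 3′ on the strand of the gene. Of the 37 genes, 25 had an entry. Each was searched for GGCGCC, a GC-rich element that BMP-activated Smads bind, which reads the same on both strands. Capitals mark the match, 178 bases before the start of *Cited2*.
*Cited2*, chr10:17722978-17723227, plus strand: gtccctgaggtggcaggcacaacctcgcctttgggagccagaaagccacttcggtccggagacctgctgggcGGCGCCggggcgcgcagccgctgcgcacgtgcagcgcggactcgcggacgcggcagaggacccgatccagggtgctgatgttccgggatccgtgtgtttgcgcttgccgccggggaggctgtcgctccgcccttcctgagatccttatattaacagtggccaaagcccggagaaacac
*Igf1r*, chr7:67952007-67952256, plus strand: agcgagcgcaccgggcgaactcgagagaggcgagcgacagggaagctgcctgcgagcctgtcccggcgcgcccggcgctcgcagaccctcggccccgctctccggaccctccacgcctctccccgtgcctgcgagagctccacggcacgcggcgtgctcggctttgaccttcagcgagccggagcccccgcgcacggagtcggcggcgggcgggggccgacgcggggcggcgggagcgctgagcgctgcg
No match was found in the *Igf1r* window. Of the 25 genes, 6 held at least 1 match: *Cited2*, *Emx2*, which was expressed and not called, and *Lhx2*, *Rspo1*, *Wnt4* and *Sox8*, which had no read or low counts. Some genes have several start sites, so these were 6 of 31 windows, and 9.59% of the 32851 promoters of the table held at least 1 in a window of this length. A match is a description of the letters, since binding was not measured.

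*Insr* and *Igf1r* code for the tyrosine kinase receptors of insulin and IGF1, which are needed together for *Sry* expression and male sex determination in mice. *Insr* (ENSMUSG00000005534, chromosome 8, 3172061 to 3329647) was counted at 1500 to 1628 in EV samples (median 1537), at 1574, 1325, 1258, 1321 and 1314 in *gdf6Y* samples and at 1305, 1466, 1229, 1362 and 1347 in del9 samples. All del9 samples and 4 of 5 *gdf6Y* samples were below every EV sample, and *gdf6Y* replicate 1 was within the EV range. *Insr* fell by 12.2% in *gdf6Y* (log2 fold change -0.19, standard error 0.035, edgeR adjusted p = 1.0e-05) and fell by 13.2% in del9 (log2 fold change -0.20, standard error 0.034, adjusted p = 2.2e-07). Both comparisons use the same EV samples. The direct comparison of *gdf6Y* with del9 gave 0.02, with an interval of 2 standard errors from -0.05 to 0.10. Without *gdf6Y* replicate 1 the log2 fold change against EV was -0.24 (adjusted p = 2.8e-09).

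*Igf1r* (ENSMUSG00000005533, chromosome 7, 67601518 to 67883416) was counted at 2154 to 2299 in EV samples (median 2265), at 2347, 2009, 1946, 1894 and 1991 in *gdf6Y* samples and at 2009, 2112, 1969, 2099 and 2074 in del9 samples. Again all del9 samples and 4 of 5 *gdf6Y* samples were below every EV sample, and *gdf6Y* replicate 1 was above them all. *Igf1r* fell by 9.34% in *gdf6Y* (log2 fold change -0.14, standard error 0.032, edgeR adjusted p = 6.6e-04) and fell by 8.59% in del9 (log2 fold change -0.13, standard error 0.031, adjusted p = 8.2e-04). Without *gdf6Y* replicate 1 the former was -0.19 (adjusted p = 4.1e-07). *Igf1r* is the longest of the 37 genes (19768 exonic bases), and neither call held with the gene length correction (-0.05, adjusted p = 0.454, and -0.07, adjusted p = 0.174), whereas those of *Insr* (13776 bases) did (-0.14, adjusted p = 0.00274, and -0.17, adjusted p = 3.1e-05).

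*Cbx2* (ENSMUSG00000025577, chromosome 11, 118913788 to 118922100), a Polycomb subunit whose loss causes sex reversal in mice, was counted at 444 to 509 in EV samples (median 473), at 486, 525, 522, 481 and 504 in *gdf6Y* samples and at 473, 527, 515, 534 and 558 in del9 samples. In del9, 4 of 5 samples were above all EV samples. *Cbx2* rose by 10.2% in del9 against EV (log2 fold change 0.14, standard error 0.048, edgeR adjusted p = 0.0424), and this call was lost in 18 of 21 alternative fits (0.09 to 0.17, adjusted p up to 0.247). In *gdf6Y* against EV the value was 0.09 with an adjusted p of 0.408.

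**Figure D3:**
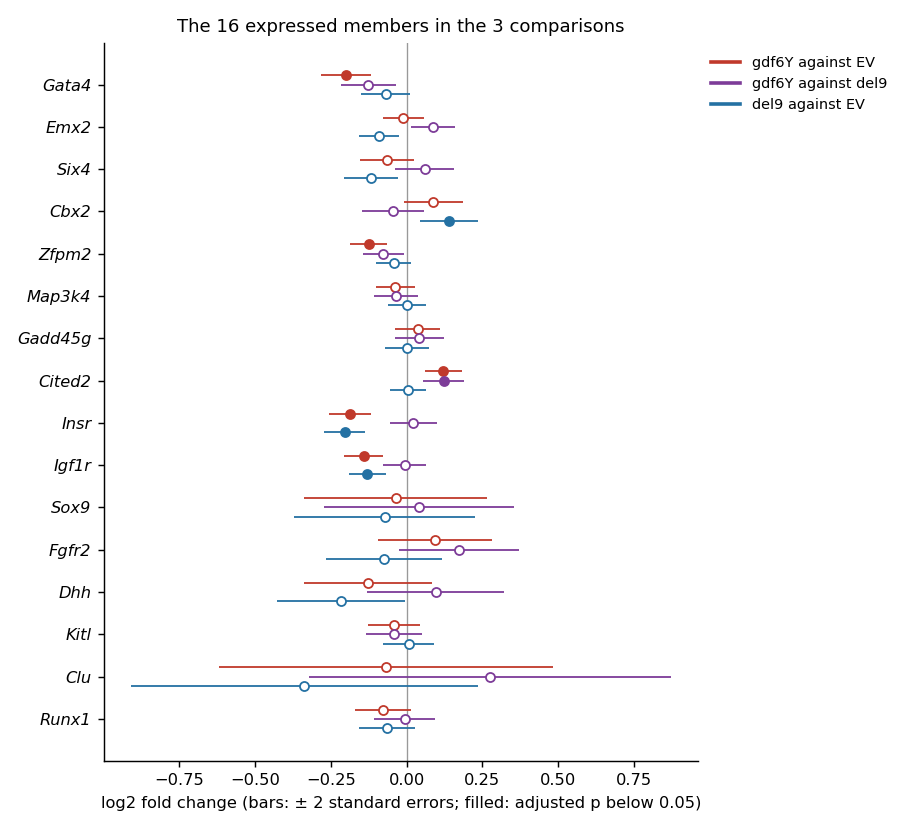
Log2 fold changes (horizontal axis) of the 16 expressed genes in 3 comparisons, with bars of ± 2 standard errors; filled points passed an adjusted p of 0.05. *Insr* and *Igf1r* lie below 0 against EV with either insert and near 0 between the inserts, and the bars of *Sox9* and *Clu* are the widest.

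The other 10 expressed genes were not called. *Emx2* averaged 1726 ± 76.4 (SD, n = 6) in EV, 1713 ± 46.4 (SD, n = 5) in *gdf6Y* and 1617 ± 98.6 (SD, n = 5) in del9 samples, and its log2 fold change in del9 against EV was -0.09 with an adjusted p of 0.0551. It passed the threshold in 8 alternative fits, with the gene length correction at -0.13 (adjusted p = 0.00121). *Six4* averaged 639 ± 27.9, 611 ± 32.3 and 588 ± 39.2, with -0.12 and an adjusted p of 0.0768 in del9 against EV, and it passed in 5. *Dhh* averaged 91.9 ± 17.5, 84.2 ± 6.95 and 79.3 ± 8.19 normalized counts, a log2 fold change of -0.22 in del9 against EV with an adjusted p of 0.228. It passed the threshold with the replicate number as a block and the gene length correction together (-0.27, adjusted p = 0.0438).

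*Map3k4* and *Gadd45g*, the p38 branch upstream of *Sry*, had log2 fold changes between -0.04 and 0.04 in all 3 comparisons, and their intervals of 2 standard errors reached at most 0.12 from 0. *Kitl* lay within the same range, between -0.04 and 0.01, and *Runx1* between -0.08 and -0.01. *Sox9* had 34 to 54 reads per sample. Its normalized count was 36.3 to 50.8 in EV samples (median 42.6), 39.4, 43.7, 40.2, 48.8 and 37.6 in *gdf6Y* and 37.2, 39.3, 37.5, 38.0 and 52.4 in del9 samples, so that the 3 groups overlapped. The interval of its log2 fold change in *gdf6Y* against EV ran from -0.34 to 0.26, and a change as large as that of *Gata4* was not detectable at this depth. For *Fgfr2* the interval was -0.09 to 0.28, and for *Clu* -0.62 to 0.48. *Fgf9*, the ligand upstream of *Fgfr2*, had 4, 3, 0, 3, 0 and 3 reads in EV, 1, 0, 0, 0 and 1 in *gdf6Y* and 2, 3, 2, 3 and 3 in del9 samples. With at most 4 reads in a sample it was not called in any comparison, and no fold change is given.

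Gene length moved with the differences to EV in all genes. Across 12549 expressed genes with a known length, which share libraries and are not replicates, Spearman's rho between exonic length and log2 fold change was -0.309 in *gdf6Y* against EV, -0.237 in del9 against EV and -0.0645 in *gdf6Y* against del9. Of the 1534 genes of at least 12000 exonic bases, 25% were called lower in *gdf6Y* against EV and 0.587% higher, and 21.5% lower and 2.48% higher in del9 against EV. Among the 37, *Igf1r*, *Zfpm2*, *Map3k4*, *Insr* and *Runx1* are of this length, and 3 of these 5 were called lower in *gdf6Y* against EV. *Gata4* (5691 bases) is shorter than the median of 6152. With the length correction, which brought rho to 0.0319 in *gdf6Y* against EV, *Gata4* and *Insr* were called in that comparison.

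Other genes of the same pathways, from lists of symbols, gave the setting. The counts of called genes in these lists stand beside the shares over all expressed genes. These were 10.5% in *gdf6Y* against EV, 1.8% in *gdf6Y* against del9 and 18.2% in del9 against EV. Of 13 further insulin and IGF genes 6 were expressed, and in *gdf6Y* against EV none rose and 2 fell, while in del9 against EV 1 rose and 2 fell. *Irs2*, an adaptor of both receptors, averaged 1784 ± 43.6 (SD, n = 6) in EV, 1545 ± 49.7 (SD, n = 5) in *gdf6Y* and 1611 ± 119 (SD, n = 5) in del9 samples and fell in both (log2 fold change -0.21, adjusted p = 1.8e-07, and -0.14, adjusted p = 3.3e-04, by edgeR). *Igf2r*, which clears IGF2, fell in *gdf6Y* against EV (-0.20, adjusted p = 3.4e-05). *Irs1* fell in del9 against EV (-0.32, adjusted p = 2.0e-07, and 0.00297 with filterByExpr) and was higher in *gdf6Y* than in del9 (0.21, adjusted p = 0.0287, and 0.348 with filterByExpr). *Igfbp6*, the most abundant of the list per length at 574 TPM, rose in del9 against EV (0.09, adjusted p = 0.0187, and 0.539 with the length correction). *Ins1*, *Ins2* and *Igf2* had no read.

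**Figure D4:**
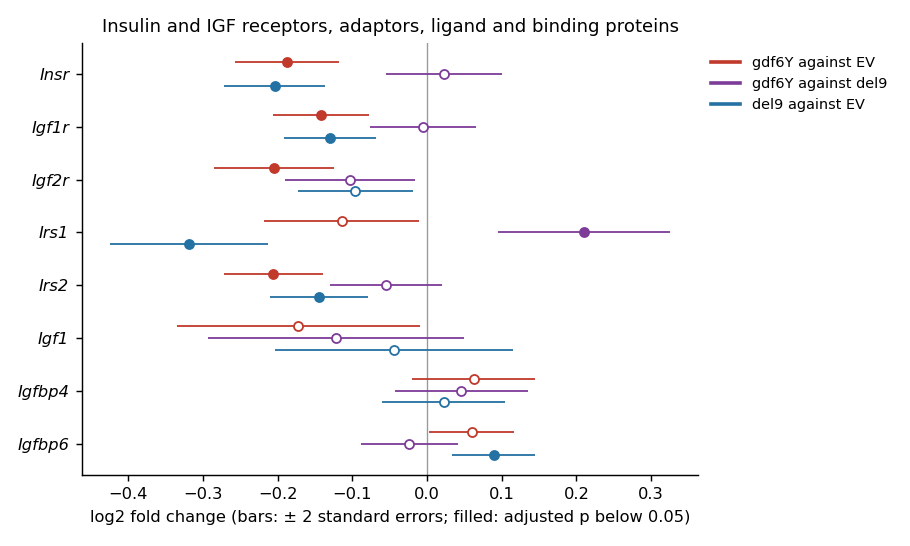
Log2 fold changes (horizontal axis) of *Insr*, *Igf1r* and the 6 expressed genes of the insulin and IGF list in 3 comparisons, with bars of ± 2 standard errors; filled points passed an adjusted p of 0.05. *Insr*, *Igf1r* and *Irs2* lie below 0 against EV with either insert, and *Irs1* is lowest in del9 (-0.32).

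Of 14 other genes of the gonadal ridge and *Sry* pathway 11 were expressed, 2 rose and 1 fell in *gdf6Y* against EV, none was called against del9, and 2 rose and 1 fell in del9 against EV. The p38 kinase kinase gene *Map2k3* rose with both inserts (0.14, adjusted p = 0.00107, and 0.15, adjusted p = 6.8e-05). *Gadd45a*, the most abundant per length at 155 TPM, fell (-0.18, adjusted p = 9.2e-05, and -0.14, adjusted p = 0.00104) and *Gadd45b* rose (0.11, adjusted p = 0.0439, and 0.10, adjusted p = 0.0492), although the latter calls were lost with filterByExpr (0.0760 and 0.0714) and with the length correction (0.294 and 0.401). *Sry* itself had no read.

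Of 21 other Sertoli markers 7 were expressed. In *gdf6Y* against EV 1 rose and 2 fell, none was called against del9, and in del9 against EV 1 rose and 1 fell. The intermediate filament gene *Vim*, the most abundant, rose with both inserts (0.12, adjusted p = 9.6e-05, and 0.18, adjusted p = 1.2e-11). With filterByExpr its adjusted p was 0.0477 and 0.00274. *Tjp1*, the tight junction scaffold, fell with both (-0.19, adjusted p = 5.7e-08, and -0.10, adjusted p = 0.00462, or 0.00229 and 0.0147 with filterByExpr). The inhibin subunit gene *Inhbb* fell in *gdf6Y* against EV (-0.10, adjusted p = 0.0121). *Aard*, *Rhox8* and *Defb19* had at most 1 read per sample.

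Of 11 other granulosa markers 5 were expressed, and *Ctnnb1*, the Wnt effector, was the most abundant at 317 TPM with log2 fold changes between -0.02 and 0.04. *Fst*, which binds activins and BMPs and acts below *Wnt4* in the ovary, averaged 471 ± 63.7 (SD, n = 6) in EV, 521 ± 92.0 (SD, n = 5) in *gdf6Y* and 637 ± 79.9 (SD, n = 5) in del9 samples. It rose in del9 against EV (0.44, adjusted p = 2.1e-18, and 0.00220 with filterByExpr, where the standard error was 0.083). The EV (395 to 560) and del9 samples (525 to 725) overlapped. *Fst* was lower in *gdf6Y* than in del9 (-0.29, adjusted p = 2.3e-06, and 0.345 with filterByExpr). *Greb1* was higher in *gdf6Y* than in del9 (0.16, adjusted p = 9.6e-05, and 0.194 with filterByExpr), and *Inhba* fell in *gdf6Y* against EV (-0.10, adjusted p = 0.0237).

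Of 13 FGF and hedgehog genes, which receive the signals of *Fgf9* and *Dhh* or are their relatives, 9 were expressed. *Fgf7* was the most abundant per length at 121 TPM and was not called. *Fgfr1* fell in *gdf6Y* against EV (-0.11, adjusted p = 0.00789, and 0.230 with the length correction), and *Gli3*, a hedgehog effector, fell in *gdf6Y* (-0.18, adjusted p = 6.25e-05) and in del9 (-0.12, adjusted p = 0.0112) against EV. *Fgf10* fell in del9 against EV (-0.18, adjusted p = 5.0e-07, and 0.00911 with filterByExpr) and was higher in *gdf6Y* than in del9 (0.12, adjusted p = 0.0411, and 0.375 with filterByExpr). *Smo*, the hedgehog transducer, rose in del9 against EV (0.08, adjusted p = 0.0486). *Ptch1* and *Gli1*, targets of hedgehog signaling, were not called, with log2 fold changes from -0.06 to 0.11.

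Markers of other testicular cells were low apart from the myoid genes *Tagln* and *Acta2*. The summed level was 0.993 to 3.07 TPM in EV samples for 6 Leydig cell markers, led by *Insl3* and *Star* with *Cyp17a1*, *Hsd3b1* and *Lhcgr* without a read, and 1.21 to 2.56 in *gdf6Y* and 1.20 to 2.52 in del9 samples. It was at most 0.713 TPM in any sample for 7 germ cell markers, led by *Dazl*, and at most 0.445 for 4 endothelial markers, led by *Cdh5*. For 4 macrophage markers it was 6.58 to 9.15 in EV, 4.96 to 7.60 in *gdf6Y* and 5.31 to 8.82 in del9 samples, nearly all from *Cd68*, while *Adgre1* and *Ptprc* had at most 1 and 2 reads per sample. The 5 peritubular myoid markers summed to 672 to 703 TPM in EV, 708 to 755 in *gdf6Y* and 686 to 751 in del9 samples, nearly all from *Tagln* and *Acta2*. Of the other myoid markers, *Des* was at 1.73 and *Cnn1* at 2.35 TPM in EV samples, beside 2.07 TPM for *Sox9*, and *Myh11* had 0 to 3 reads. *Tagln* rose with both inserts (0.14, adjusted p = 1.4e-04, and 0.12, adjusted p = 4.8e-04), and with the length correction its values were 0.09 (adjusted p = 0.0327) and 0.07 (adjusted p = 0.110, no longer called). The part of the myoid genes in the changes of the 37 genes was not tested.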

How the data were processed

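RNA-Seq counts of 16 TM4 samples were analysed. Per the labels and the methods, the authors made stranded poly(A) libraries with unique molecular identifiers from 300 ng RNA, aligned reads with STAR 2.7.10a to GRCm39, took out PCR duplicates (UMI-tools) and counted uniquely mapped, sense-strand reads per gene with featureCounts 2.0.3. The deposited values are whole-number counts without normalization. The authors left out replicate 6 of *gdf6Y* and of del9 for lower quality; these were not analysed here.

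Groups and replicate numbers came from the sample titles. Counts were tested with edgeR 4.0.16 in R 4.3.3 (TMM, quasi-likelihood test, 2 groups per model, no covariates, genes with at least 1 count in the comparison, Benjamini-Hochberg over all genes). A standard error is the absolute log2 fold change over the root of the F statistic. Symbols, positions and exonic lengths came from GENCODE (GRCm39), which matched 56017 of 56748 identifiers and is not the release used for counting. Depth was 21486850 to 26444903 counts per sample, which sets the precision together with the spread between replicates; limits for a count of 0 use 3 counts and cover counting error only. The steps were tested on simulated data.

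Alternatives were DESeq2 1.42.0, its size factors, total counts, the filterByExpr filter, a minimum of 10 counts in each sample, a joint model of the 3 groups, a replicate block, a gene length correction, the last 2 together, leaving out each sample, and other minimum counts for an expressed gene. The edgeR 4 dispersion was added after the data were seen. All 37 genes are accounted for; called genes are given by sample, and of other lists the called genes (at most 5 each) and the most abundant gene are named. Uncalled genes named beside these, such as *Sry*, *Ptch1*, *Gli1*, *Ins1* and *Cyp17a1*, were picked after their values were seen. The genes and lists were chosen with earlier results of these data known. Of these lists, 2 genes are not reported here.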

Additional observations from a re-analysis of the deposited data

Results flagged for a closer look

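Outlying samples were sought with Dixon's ratio, the gap to the nearest sample over the range, at its 95% critical value, in 51 groups: the 16 expressed genes and the total counts, each in 3 groups. It picked 6, where chance picks about 1 in 20 (2.55 here), and the groups share samples. Replicate 1 of *gdf6Y* was high for *Insr* (ratio 0.790, 1574 normalized counts against 1258 to 1325) and for *Igf1r* (ratio 0.746, 2347 against 1894 to 2009). Replicate 5 of del9 was high for *Sox9* (ratio 0.864, 52.4 against 37.2 to 39.3). Replicate 5 of *gdf6Y* was low for *Fgfr2* (ratio 0.800, 83.7 against 118 to 127). Replicate 1 of EV was low for *Runx1* (ratio 0.686, 544 against 584 to 602). Replicate 3 of del9 had the fewest counted reads of its group (ratio 0.712, 24608410 against 25650188 to 26071045).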

How the results depend on the processing

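Of the 9 calls among the 37 genes, those of *Gata4* and of *Insr* in both comparisons with EV held in every alternative run. With the gene length correction 2 genes were called in *gdf6Y* against EV (5 in the reported fit) and with the correction and the replicate block together 3. In *gdf6Y* against del9, 0 genes were called in edgeR with filterByExpr, with at least 10 counts in every sample and with the edgeR 4 dispersion, and 0 to 1 when 1 sample was left out; *Cited2* had an unadjusted p of 2.6e-04 in the reported fit and DESeq2 called it. The lists of all genes moved more. In *gdf6Y* against EV 1338 genes were called, 2114 with the replicate block and 794 to 1751 with 1 sample left out (794 without *gdf6Y* replicate 5). In *gdf6Y* against del9 261 were called, 81 with DESeq2, 45 with filterByExpr, 44 with at least 10 counts in every sample, 661 with the replicate block, 639 with the block and the length correction, 163 with the edgeR 4 dispersion, and 160 to 441 with 1 sample left out (441 without del9 replicate 1, 160 without del9 replicate 2). The cause was not tested. In del9 against EV 2425 were called and 3007 with the block.

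Samples with the same replicate number share only a number in the labels. Same-number correlations of deviations were 0.0409 to 0.195 between *gdf6Y* and EV, 0.0994 to 0.163 between *gdf6Y* and del9 and -0.0510 to 0.155 between del9 and EV, and 3, 4 and 1 of 5 numbers matched best with their own, a hint from the data only. With the replicate block 5, 1 and 4 of the 37 genes were called in the 3 comparisons, against 5, 1 and 3.

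Over the expressed genes, 20 values changed sign at 2 decimals, none of them called. With the length correction, alone and with the block, they were *Map3k4* in *gdf6Y* against EV (0.02 and 0.01), *Gadd45g* there (-0.02 and -0.01) and *Igf1r* in *gdf6Y* against del9 (0.02 and 0.02). *Kitl* in del9 against EV was -0.01 with total counts. The others came from leaving out 1 sample, over which ranges are -0.02 to 0.01 for *Emx2* in *gdf6Y* against EV, -0.04 to 0.05 for *Insr* in *gdf6Y* against del9, -0.06 to 0.02 for *Igf1r* in *gdf6Y* against del9, -0.09 to 0.02 for *Sox9* in *gdf6Y* against EV, -0.02 to 0.15 for *Sox9* in *gdf6Y* against del9, -0.03 to 0.03 for *Kitl* in del9 against EV, -0.15 to 0.02 for *Clu* in *gdf6Y* against EV and -0.05 to 0.03 for *Runx1* in *gdf6Y* against del9. The number of expressed genes was 16, 18 at a minimum of 5 and 15 at a minimum of 20.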
